A study of Mus musculus and Homo sapiens with 12 samples.

Results

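Asparagine synthetase (Asns in mouse, identifier ENSMUSG00000029752; ASNS in human, ENSG00000070669) was followed across every library of an RNA sequencing study of leukaemia of the T-cell lineage (T-cell acute lymphoblastic, T-ALL). It was picked by its symbol, which is 1 of the 10430 genes in the mouse table and 1 of the 11513 in the human table, so 2 of 21943 entries in all. Asns was chosen because of its mouse values by diet, so these values are a description and carry no test. The human values were not used in that choice.

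The mouse libraries came from leukaemic cells of NOTCH-delta E tumours, which carry an activated form of NOTCH1, after secondary transplantation into C57BL/6 mice. The mice received a diet labelled 8 g/kg valine (the control), 0.8, 0.4 or 0 g/kg for 3 weeks, and GFP-positive cells were sorted from the spleen. Each of the 4 diets has 1 library named TALL2 and 1 named TALL3. The labels give neither the age of the mice nor what TALL2 and TALL3 stand for. All mouse groups share the NOTCH-delta E model, the strain, the sort and the organ. The protocol describes the intermediate doses as 0.8 or 0.4 g/L valine in the water beside a valine-free chow, whereas the sample labels give g/kg, so the doses serve here only to name and rank diets. The human libraries came from KOPTK1, an established T-ALL line and thus a single cell line, cultured with DMSO as vehicle or with Compound E, an inhibitor of gamma-secretase (gSI) that blocks NOTCH1 cleavage, over 72 h and in 2 libraries each. The labels do not say that libraries of a group came from separate animals or cultures, so p-values rest on the spread among libraries alone, part or all of which may be technical.

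Asparagine synthetase moves the amide nitrogen of glutamine onto aspartate, in a reaction driven by ATP, and so makes asparagine and glutamate. Its mRNA is a classic target of the amino acid response. In that response uncharged tRNA activates the kinase GCN2, GCN2 phosphorylates the initiation factor eIF2, bulk translation slows, and the transcription factor ATF4 is translated and switches on genes of amino acid synthesis, uptake and tRNA charging. Lymphoblastic leukaemia cells are known for low asparagine synthetase, which is the basis of treating the disease with asparaginase.

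Asns lies on the minus strand at chr6:7675169-7693254 of GRCm38. The stretch at its start is shown because it holds the letters through which this gene is known to answer to amino acid shortage, a pair of nutrient-sensing response elements read TGATGAAAC and GTTACA. The capitals in the next line mark these elements in the RefSeq sequence of GRCm38.p6, chr6:7693205-7693234, minus strand.
Asns: caTGATGAAACttcccgcacgcGTTACAga
TGATGAAAC occupies bases -23 to -15 counted from the RefSeq transcription start, and GTTACA bases -3 to 2. The GENCODE transcript Asns-201 starts 45 bp further upstream, so in that annotation the same 30 bases fall in its 5′ untranslated region. In the RefSeq table of promoters, which runs from 250 bases before to 50 after each start, TGATGAAAC on either strand was found in 81 of 32851 promoters (0.247%), GTTACA in 2709 (8.25%), and both on 1 strand in 4 (0.0122%).

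The wider amino acid response motif, TGATGNAA, overlaps TGATGAAAC in Asns. Searched on both strands, it was present in 3.97% of all promoters in the table and in 215 of the 8088 tested genes with an entry (2.66%). Of the 42 tested genes of the amino acid response list, 35 had a promoter entry and 11 of these held it (31.4%). TGATGAAAC and GTTACA were each found in 0 of the 35, against 0.223% and 6.29% of the tested genes with an entry. Windows from 4 of the list genes with TGATGNAA are shown because their values are described below, with the motif in capitals and all on the plus strand. Yars, at chr4:129189895-129189924, is among the 10 genes whose values were most like those of Asns. Only 9 of these 10 had a promoter entry. Of the 9, 2 held TGATGNAA (22.2%) and 0 held TGATGAAAC or GTTACA. Slc1a4, at chr11:20332699-20332728, encodes a carrier of neutral amino acids, and Trib3, at chr2:152344028-152344057, and Atf3, at chr1:191183425-191183454, encode regulators of the response.
Yars: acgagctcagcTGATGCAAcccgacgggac
Slc1a4: caggctggagaTGATGCAAcgcaggaggca
Trib3: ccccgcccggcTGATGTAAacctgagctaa
Atf3: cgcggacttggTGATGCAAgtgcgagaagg
A match describes these letters only and is not a measured binding site.

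Values were FPKM, sequenced fragments scaled to gene length and library depth, so levels of different genes can be set beside each other within the mouse table. Read numbers worked back from the FPKM values came to 14222895 to 37687253 over the listed genes of a mouse library. The deepest libraries were TALL2 at 0.4 g/kg, with 37687253 reads, and TALL3 at 0.8 g/kg, with 25840513. Markers of thymocytes and T-ALL summed to between 3983 and 5327 FPKM in every mouse library (19 of 20 markers listed), so the markers of the labelled cells were abundant throughout. Markers of other cells were also found, and their sums are given below.

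On the control diet Asns was low in both libraries, at 2.02 FPKM in TALL2 and 2.90 in TALL3, from 88 and 96 recovered reads. The diet labelled 0.8 g/kg gave 5.59 FPKM in TALL2 but 47.5 in TALL3, and the one labelled 0.4 g/kg gave 47.3 FPKM in TALL2 but 17.1 in TALL3. Without valine the libraries reached 69.2 and 84.6 FPKM. All 6 libraries from restricted diets were above both controls, and both libraries without valine were above the other 6. The libraries at 0.8 and 0.4 g/kg overlapped. The order of the diet means was therefore 8 g/kg (2.46 ± 0.620 FPKM, SD, n = 2), 0.8 g/kg (26.6 ± 29.7), 0.4 g/kg (32.2 ± 21.4) and 0 g/kg (76.9 ± 10.9), in which the neighbours 0.8 and 0.4 g/kg did not differ beyond their spread. Over all tested genes, 4.73% were likewise higher in all 6 restricted libraries than in both controls, and since Asns was picked for its values by diet nothing is read from this share.

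**Figure D1:**
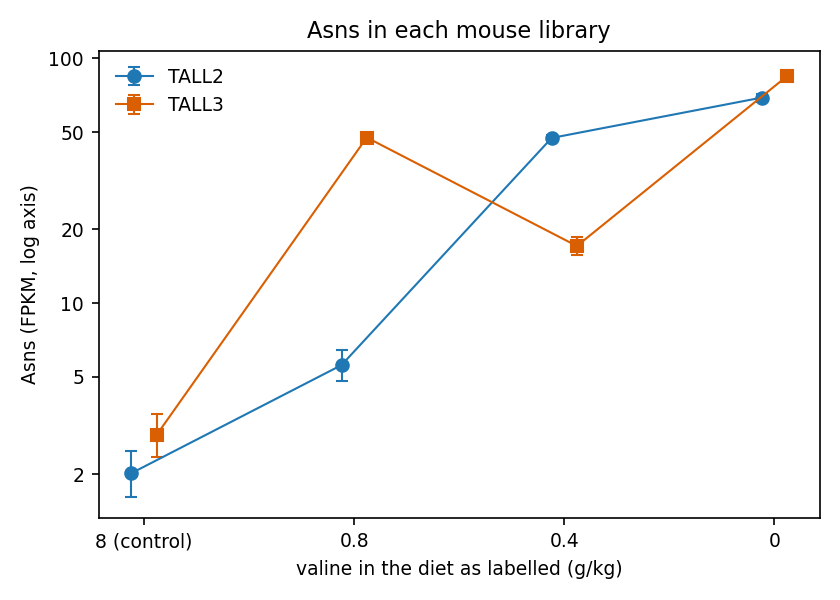
Asns FPKM (log axis) in each of the 8 mouse libraries by the labelled valine content of the diet in g/kg; circles are TALL2, squares are TALL3, lines join libraries of the same name, and bars are 95% Poisson intervals of the recovered reads, which cover counting error only. Asns lies between 2.02 and 2.90 FPKM on the control diet and between 69.2 and 84.6 FPKM without valine, and the lines cross at the intermediate diets.

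Set against the control library of the same name, Asns without valine was 34.3-fold higher in TALL2 and 29.2-fold higher in TALL3. These ratios of FPKM were 2.77 in TALL2 and 16.4 in TALL3 on the 0.8 g/kg diet, and 23.4 and 5.91 on the 0.4 g/kg diet. On the scale of log2(FPKM + 1), which shrinks the change of genes with low FPKM, the diet means lay 2.38 (0.8 g/kg), 3.11 (0.4 g/kg) and 4.50 (0 g/kg) above the control. Among the 9943 tested genes, whose mean over the 8 libraries was 1 FPKM or more, this difference had rank 1 for 0.8 g/kg, rank 1 for 0.4 g/kg and rank 6 without valine. In level, Asns stood at percentiles 7.99 and 11.5 of these genes in TALL2 and TALL3 on the control diet and at percentiles 90.3 and 92.5 without valine. Asns thus stood among the lowest tested mRNAs on the control diet and among the highest without valine.

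The libraries of a diet were close to each other at both ends of the valine range and far apart between. TALL3 was 1.43 times TALL2 on the control diet and 1.22 times TALL2 without valine. At 0.8 g/kg TALL3 was 8.51 times TALL2, whereas at 0.4 g/kg TALL2 was 2.76 times TALL3. Counting error was small beside these gaps. The 95% Poisson interval of the recovered reads was 4.81 to 6.45 FPKM for TALL2 and 45.7 to 49.4 FPKM for TALL3 at 0.8 g/kg, and 45.8 to 48.9 and 15.8 to 18.6 FPKM at 0.4 g/kg. The 2 intermediate libraries with the higher Asns are also the most deeply sequenced of the 8, and the part of depth in this was not tested.

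Many genes of the amino acid response, and of 2 lists around it, split in the same direction between the intermediate libraries. Of the 42 tested list members other than Asns, 39 were higher in TALL3 than in TALL2 at 0.8 g/kg, against 56.1% of all tested genes. At 0.4 g/kg 28 were higher in TALL2 than in TALL3, against 45.7%, and 27 (64.3%) did both, against 30.5%. Of the 16 tested genes of eIF2 sensing and control 15 were higher in TALL3 at 0.8 g/kg and 9 (56.2%) did both, and of the 19 of asparagine and aspartate metabolism 14 and 10 (52.6%). Among genes of glutamine amide metabolism 5 of 14 (35.7%) did both, and among carriers of asparagine or glutamine 2 of 8 (25%). Relative to the control of the same name, the median of the amino acid response list was 0.11 (log2) in TALL2 and 0.53 in TALL3 on 0.8 g/kg, 0.54 and 0.43 on 0.4 g/kg, and 0.69 and 0.90 without valine. The median over all tested genes lay between -0.07 and -0.01 in these 6 comparisons. That list was thus nearest to its control in the restricted library in which Asns was lowest. From 0.8 to 0.4 g/kg Asns was higher in TALL2 and lower in TALL3, as were 28 of the 42 against 33.9% of all genes. By more than 0.5 each way, 6 of the 42 and 1.85% of all genes did so. Of the eIF2 list 0 of 16 did so, and of the asparagine and aspartate list 0 of 19. Among thymocyte and T-ALL markers 11 of 19 took this step, 2 of them by more than 0.5 each way, so it was not particular to these lists.

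The genes whose values ran most like those of Asns were picked by Pearson's r of log2(FPKM + 1) over the 8 mouse libraries. These libraries share diets and sequencing depths, so r describes a likeness and carries no test. The 10 highest were Gpt2 (r = 0.993), Alg6 (0.988), Sars (0.985), Aars (0.984), Lars (0.981), Ipo13 (0.979), Yars (0.976), Mthfd2 (0.976), Pold3 (0.9752) and Psat1 (0.974). Spearman's rho of these genes with Asns lay between 0.810 and 1. Without the 2 libraries farthest from the median Asns value, r was between 0.947 and 0.986. Of all 9942 other tested genes, 66 (0.664%) had an r of at least 0.9. Ranked by Spearman's rho instead, the 10 highest genes shared 2 with this set.

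Gpt2, mitochondrial alanine transaminase, followed Asns most closely and over the widest range. It was at 1.45 and 1.53 FPKM on the control diet, at 2.27 in TALL2 and 7.05 in TALL3 at 0.8 g/kg, at 6.64 and 3.56 at 0.4 g/kg, and at 9.12 and 8.23 without valine. Its crossing at the intermediate diets was that of Asns. Sars, Aars, Lars and Yars encode the enzymes that charge serine, alanine, leucine and tyrosine tRNAs. Sars was at 48.4 and 47.6 FPKM on the control diet, 57.6 and 75.6 on 0.8 g/kg, 74.7 and 69.8 on 0.4 g/kg, and 81.6 and 85.4 without valine. Aars was at 29.8 and 30.7 FPKM on the control diet and at 50.9 and 63.4 without valine. These mRNAs were already abundant on the control diet, when Asns was not. Lars, the leucyl enzyme, was at 37.5 and 39.1 FPKM on the control diet and 57.2 and 55.6 without valine, and Yars at 25.3 and 31.1 and at 49.1 and 57.6.

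Psat1 and Mthfd2 belong to serine synthesis and mitochondrial folate metabolism. Psat1, phosphoserine aminotransferase, was at 99.2 and 88.0 FPKM on the control diet, 116 and 174 on 0.8 g/kg, 178 and 149 on 0.4 g/kg, and 180 and 183 without valine. Mthfd2 was at 43.0 and 37.0 FPKM on the control diet and at 87.9 and 105 without valine. The remaining genes are not on the amino acid response list. Alg6, a glucosyltransferase that builds the sugar donor of N-glycosylation, was at 2.08 and 2.32 FPKM on the control diet and 3.50 and 3.59 without valine. Ipo13, a nuclear transport receptor, was at 16.8 and 17.2 and then at 21.9 and 22.4, and Pold3, a subunit of DNA polymerase delta, at 22.9 and 22.7 and then at 31.5 and 31.2. Alg6 and Ipo13 put all 8 libraries in the same order as Asns (rho = 1) over a range far smaller than that of Asns.

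**Figure D2:**
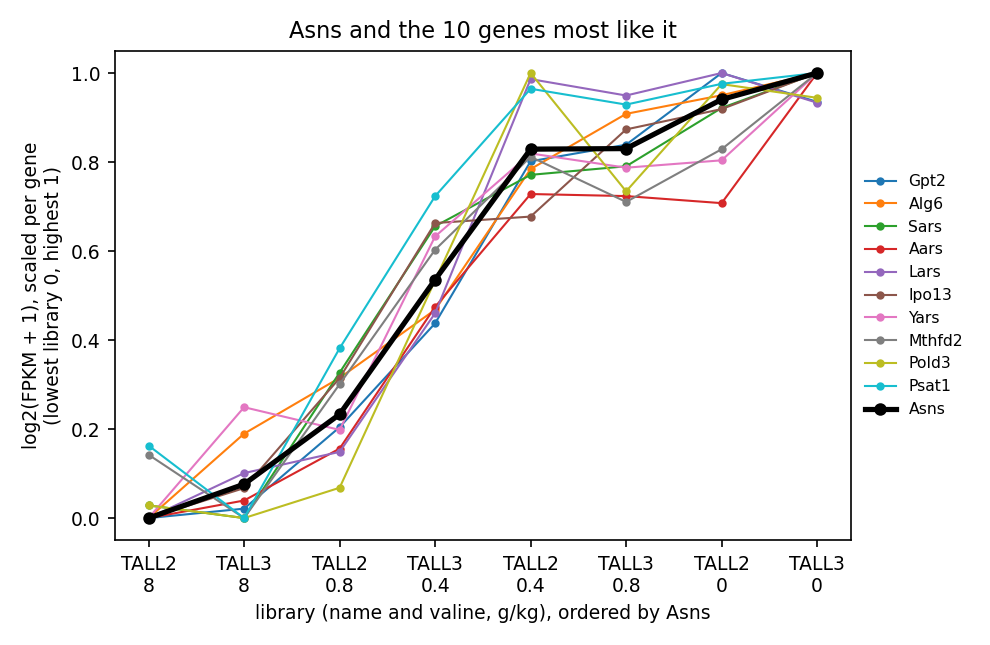
log2(FPKM + 1) of Asns (thick black line) and of the 10 genes with the highest r, each scaled from 0 in its lowest library to 1 in its highest, with the 8 mouse libraries ordered by Asns. In all 11 lines both controls and TALL2 at 0.8 g/kg lie below TALL3 at 0.4 g/kg, which lies below TALL2 at 0.4 g/kg, TALL3 at 0.8 g/kg and both libraries without valine.

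The amino acid response list held 51 genes besides Asns, of which 42 were listed and tested in mouse; Chac1 was not listed. In limma none of the 42 passed an adjusted p of 0.05 in any diet comparison, and neither did any of the 9943 tested genes (0%). Without adjustment, 30 of the 42 had p under 0.05 for 0 against 8 g/kg, against 1025 of all genes (10.3%). Limma-voom on the recovered reads also called 0 genes, with 933 at an unadjusted p under 0.05. Both libraries without valine were above both controls for 37 of the 42 and below them for 0, against 19.1% and 22.9% of all genes. At 0.4 g/kg 32 of 42 lay above both controls (16.9% of all genes) and 2 below (31.8%), with 14 at an unadjusted p under 0.05 (10.7%). At 0.8 g/kg 18 lay above (10.6%) and 2 below (22.5%), with 5 at an unadjusted p under 0.05 (4.35%). The median difference was 0.81 without valine, 0.53 at 0.4 g/kg and 0.30 at 0.8 g/kg, beside -0.01, -0.05 and -0.04 over all tested genes. In all 6 restricted libraries 17 of 42 were above both controls (4.73% of all genes) and 0 below (11.4%). These comparisons share the control libraries. The list was chosen with earlier results of these data known, so its counts are a description and no independent support.

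Among the regulators of the response, Atf4 itself was little different between diets. It was at 80.3 and 76.2 FPKM on the control diet, 66.2 and 75.9 on 0.8 g/kg, 62.5 and 86.2 on 0.4 g/kg, and 73.5 and 125 without valine, and only the TALL3 libraries at 0.4 g/kg and without valine were above both controls (r with Asns 0.28). Ddit3, which encodes the stress factor CHOP, was at 9.19 and 10.1 FPKM on the control diet and 13.8 and 23.5 without valine, with 8.11 to 11.5 between. Trib3, a pseudokinase that restrains ATF4 and AKT, was at 0.499 and 0.179 FPKM on the control diet, 1.82 and 5.84 on 0.8 g/kg, 1.23 and 3.17 on 0.4 g/kg, and 3.04 and 21.4 without valine. Its highest library was the highest one of Asns too. Ppp1r15a, which directs the phosphatase that reverses eIF2 phosphorylation, was at 14.5 and 7.31 FPKM on the control diet and 45.8 and 52.9 without valine. At the intermediate diets it lay between 8.61 and 19.2 FPKM, so in the libraries where Asns was already at 47 FPKM it was at 8.61 and 12.03. Sesn2, an inhibitor of mTORC1, was at 2.70 and 2.40 FPKM on the control diet and 3.32 and 15.1 without valine. Atf3, a transcription factor induced by stress, was at 0.393 and 0.122 FPKM on the control diet, 0.122 and 0.133 on 0.8 g/kg, 0.0255 and 1.502 on 0.4 g/kg, and 1.33 and 6.73 without valine, so both intermediate libraries with high Asns were within or below the range of the controls (r = 0.50).

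Of the 42 list members 21 had an r of at least 0.9 with Asns (50%, against 0.664% of all tested genes), and the median r of the list was 0.90. By r these 21 were Gpt2, Sars, Aars, Lars, Yars, Mthfd2, Psat1, Aldh18a1, Shmt2, Cars, Gars, Pycr1, Slc7a5, Slc6a9, Eif4ebp1, Atf5, Eprs, Slc1a4, Iars, Nars and Mars. The 21 genes encode tRNA charging enzymes, enzymes of serine, one-carbon and proline metabolism, amino acid carriers, the translation repressor 4E-BP1 and the transcription factor ATF5. Eif4ebp1 had the second largest difference of the list without valine, after Trib3, at 1.36 and 5.74 FPKM on the control diet and 16.5 and 26.2 without valine. Slc1a4, the carrier whose promoter window is shown above, was at 1.61 and 2.24 FPKM on the control diet, 2.25 and 6.34 on 0.8 g/kg, 3.83 and 2.74 on 0.4 g/kg, and 4.43 and 7.08 without valine. Its highest intermediate library was that of Asns, TALL3 at 0.8 g/kg. Bcat1, the cytosolic enzyme that removes the amino group of valine, leucine and isoleucine, was at 3.24 and 2.17 FPKM on the control diet and at 8.82 and 7.60 without valine (r = 0.88). Phgdh, the first enzyme of serine synthesis, was at 36.6 and 38.0 FPKM and at 46.8 and 44.2. Wars, the tryptophanyl enzyme, was the list's only member with a lower mean without valine, at 51.9 and 50.6 FPKM on the control diet and 51.1 and 48.9 without valine, and its groups overlapped.

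The genes that feed or use the reaction of asparagine synthetase were nearer to the average of all genes. The list of asparagine and aspartate metabolism held 24 genes, 19 of them tested, with 0 called and a median difference of -0.06 without valine. Of the 19, 2 were above both controls (19.1% of all tested genes were) and 4 below (22.9%). Nars, which charges asparagine tRNA, was at 73.3 and 77.7 FPKM on the control diet, 72.2 and 117 on 0.8 g/kg, 115 and 112 on 0.4 g/kg, and 106 and 117 without valine (r = 0.91). Dars, the aspartyl enzyme, was at 148 and 129 FPKM on the control diet and at 158 and 113 without valine. Nars thus ran with Asns and Dars did not (r = 0.04). Nars is also on the amino acid response list, where other charging enzymes such as Sars and Aars had a higher r, and Dars is not. Got1 and Got2, the aspartate transaminases of cytosol and mitochondria, were at 33.4 and 37.5 FPKM and at 47.6 and 50.1 FPKM on the control diet, and at 34.2 and 33.7 and at 42.5 and 36.5 without valine. Asrgl1, an asparaginase, was at 21.7 and 22.1 FPKM on the control diet and at 15.8 and 12.6 without valine, the list's largest difference downward (-0.60). Asnsd1, whose product resembles asparagine synthetase in part, was between 2.56 and 3.94 FPKM in all 8 libraries. Adssl1, which joins aspartate to IMP in muscle and other tissues, was at 18.0 and 15.6 FPKM on the control diet and at 21.5 and 8.17 without valine, and Ass1, which joins it to citrulline, at 17.8 and 5.45 and at 14.5 and 7.99. Aspg was not listed.

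The 14 genes of synthesis, breakdown and amide transfer of glutamine, the other substrate, were all tested. Of these 3 were above both controls without valine and 3 below, near the 19.1% and 22.9% of all tested genes, and the median difference was -0.06. Glul, glutamine synthetase, was at 18.3 and 16.2 FPKM on the control diet and 14.2 and 13.9 without valine, with its lowest value, 5.28, in TALL2 at 0.4 g/kg. Ppat and Gfpt1, which spend glutamine on purines and hexosamines, lay between 35.5 and 45.1 FPKM and between 8.79 and 11.5 FPKM over all libraries. The largest differences upward in this list were those of Ctps2 (0.24) and Pfas (0.13), of pyrimidine and purine synthesis, and those downward, among genes with at least 5 FPKM, of Glul (-0.28) and Gmps (-0.25), of guanine nucleotide synthesis. No gene of this list reached an r of 0.9 with Asns.

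Of 14 carriers of asparagine or glutamine 8 were tested, and 6 of them were above both controls without valine and 0 below, against 19.1% and 22.9% of all tested genes. The amino acid response list also holds Slc3a2, Slc7a5, Slc1a5 and Slc38a2, which were counted there too. Slc3a2, the heavy chain shared by several amino acid exchangers, was at 66.0 and 61.4 FPKM on the control diet and at 89.9 and 119 without valine. Slc7a5, with which it takes up branched-chain and aromatic amino acids, stood at 93.4 and 89.7 FPKM on the control diet, 79.0 and 132 on 0.8 g/kg, 132 and 107 on 0.4 g/kg, and 137 and 149 without valine, so its intermediate libraries split as those of Asns did (r = 0.93). Slc1a5, an exchanger of glutamine and asparagine, was at 87.1 and 88.2 FPKM and at 114 and 124. Slc38a2 was at 53.4 and 55.7 FPKM and at 64.9 and 93.7. Its relative Slc38a1 lay between 77.3 and 103 FPKM with no order by diet.

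The 16 genes that sense amino acids through eIF2 or carry out its control were all tested. Ppp1r15a, described above, was the largest difference upward (2.15), followed by Eif2ak2 (0.20), the kinase activated by double-stranded RNA. The largest downward were Eif2b2 (-0.38), a subunit of the exchange factor for eIF2, and Eif2ak1 (-0.23), the kinase that senses haem. Eif2ak4, which encodes GCN2, was between 6.05 and 7.82 FPKM and its partner Gcn1l1 between 33.0 and 41.8 FPKM over the 8 libraries. The median difference of this list was -0.10 without valine, with 2 of 16 members above both controls (19.1% of all tested genes) and 6 below (22.9%). At the intermediate diets 9 of the 16 split between the names as Asns did.

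**Figure D3:**
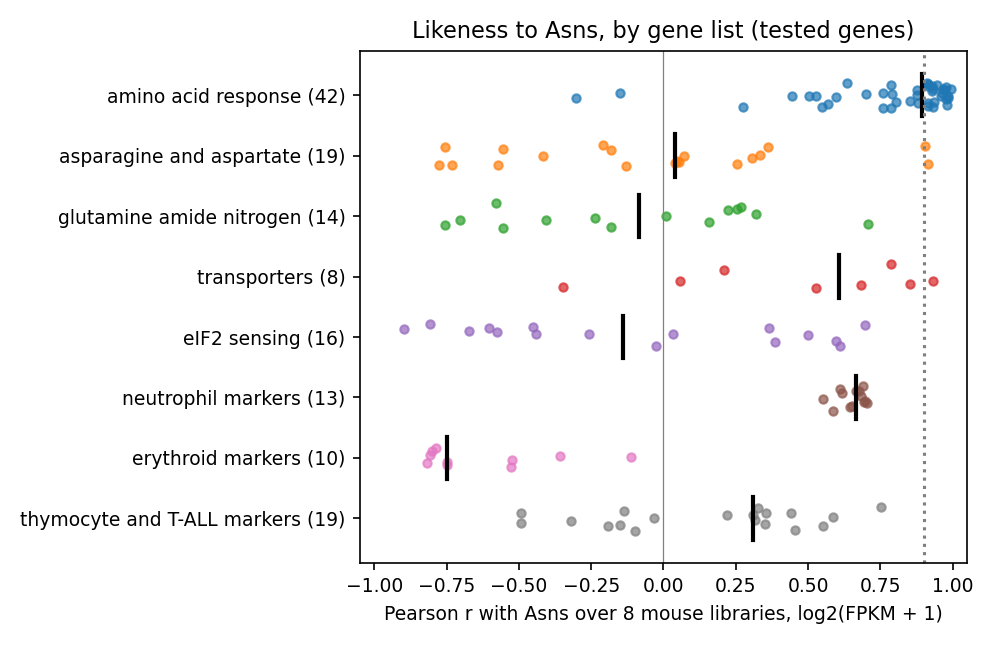
Pearson's r with Asns over the 8 mouse libraries for each tested gene (point) of 5 pathway lists and 3 marker lists; vertical bars are list medians, the dotted line is r = 0.9, the number of tested genes stands in brackets, and vertical scatter within a row is for legibility. The amino acid response list has 21 of 42 genes at or beyond the dotted line, and the glutamine and eIF2 lists have 0.

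Markers of other blood cells differed between the libraries as well. Of 16 neutrophil markers 15 were listed, and they summed to 0.964 FPKM in TALL2 and 10.9 FPKM in TALL3 on the control diet, 14.3 and 12.4 on 0.8 g/kg, 12.96 and 78.5 on 0.4 g/kg, and 580 and 347 without valine. S100a8, Camp, Elane, Prtn3, Ctsg, Retnlg and Mmp8 were listed at 0 in TALL2 on the control diet. These sums were highest in the libraries with the highest Asns. At the intermediate diets their order differed from that of Asns. TALL3 at 0.8 g/kg and TALL2 at 0.4 g/kg held 12.4 and 12.96 FPKM of neutrophil markers and 47.5 and 47.3 FPKM of Asns, while TALL3 on the control diet held 10.9 and 2.90. The part of neutrophils in the Asns values was not tested on any diet. In bulk RNA a change in the number of cells of a type and a change in RNA per cell cannot be told apart.

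Erythroid markers ran the other way. The 11 of 16 that were listed summed to 179 and 336 FPKM on the control diet, 98.8 and 77.6 on 0.8 g/kg, 120 and 113 on 0.4 g/kg, and 61.1 and 58.6 without valine. Most of the sum without valine was Tfrc, the transferrin receptor, at 52.36 and 49.98 FPKM, which dividing T cells also make. The globins Hba-a1, Hba-a2, Hbb-bs and Hbb-bt were listed at 0 in TALL2 without valine. B cell markers, 3 of 13 listed, summed to between 4.05 and 24.7 FPKM except in TALL3 without valine, at 117, and monocyte and macrophage markers, 9 of 16 listed, to between 10.997 and 26.4 FPKM on the diets with valine and to 46.1 and 46.8 without. Of the latter Lyz2, a lysozyme that neutrophils also make, was 26.7 and 20.9 FPKM, and without it the macrophage markers summed to 19.4 and 25.9 FPKM without valine and to between 9.83 and 24.9 on the other diets. Markers of NK and cytotoxic cells, 3 of 8 listed, summed to 568 FPKM in TALL2 and 460 in TALL3 on the control diet. The sums were 742 and 489 on 0.8 g/kg, 577 and 863 on 0.4 g/kg, and 704 and 511 without valine. Of 8 platelet markers 1 was listed, at 12.5 and 8.39, 27.9 and 5.89, 11.6 and 20.5, and 11.3 and 25.9 FPKM in the same order. At both intermediate diets the order of the names in these 2 lists was opposite to that of Asns. The part of all these cells in the Asns values was not tested.

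**Figure D4:**
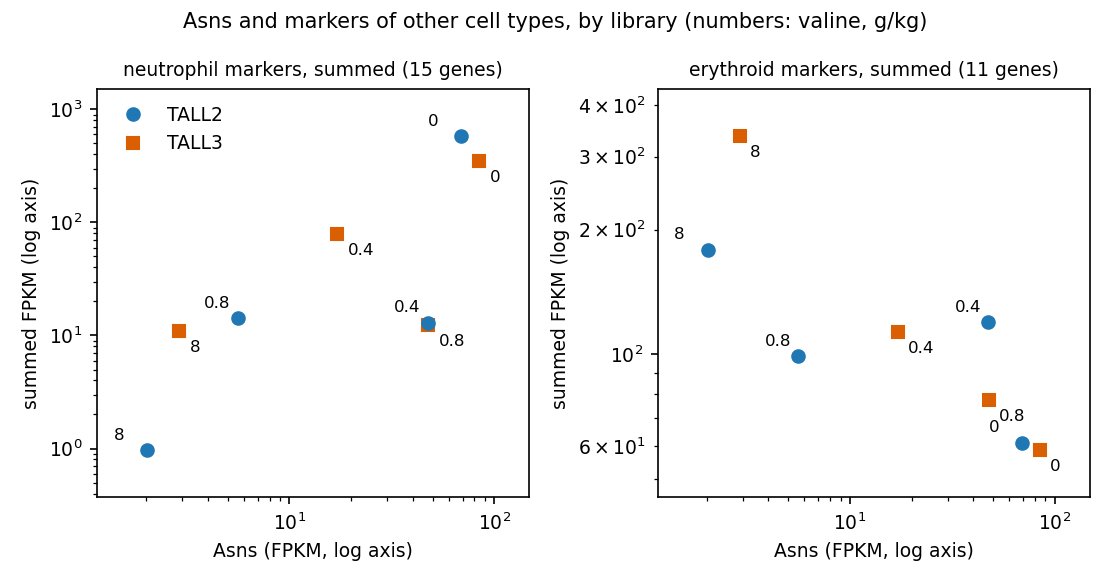
Summed FPKM of the listed neutrophil markers (left, 15 genes) and erythroid markers (right, 11 genes) against Asns FPKM in the 8 mouse libraries, both axes logarithmic; circles are TALL2, squares TALL3, and the number at each point is valine in g/kg. TALL2 at 0.4 g/kg and TALL3 at 0.8 g/kg lie at about the same Asns and the same neutrophil sum, 47.3 and 47.5 FPKM against 12.96 and 12.4.

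The chromosomal neighbourhood and the coding sequence of Asns were also described. Of 15 other annotated genes within 500 kb, 3 are protein coding and only C1galt1, an enzyme of O-glycosylation, was listed. C1galt1 was at 42.3 and 34.9 FPKM on the control diet and at 33.7 and 30.8 without valine, and between 33.4 and 35.1 in the intermediate libraries, so the neighbour did not share the pattern of Asns. The gene length recovered for Asns from the FPKM steps was 2001 bp, equal to the exons of Asns-201, a transcript of 12 exons. Of the 561 codons of Asns 32 (5.70%) encode valine, at percentile 40.5 of 9421 tested genes with a coding sequence, whose median was 6.09%.

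In KOPTK1 cells the comparison asked whether ASNS mRNA changed when NOTCH1 cleavage was blocked. ASNS was at 3.31 and 3.07 FPKM with DMSO and at 3.48 and 3.22 FPKM with gSI, so the groups overlapped. The means were 3.19 ± 0.171 and 3.35 ± 0.177 FPKM (SD, n = 2). In limma the difference in log2(FPKM + 1) was 0.05 (SE 0.0744, 95% interval -0.10 to 0.21, adjusted p = 0.574). The interval spans ratios of FPKM + 1 from 0.933 to 1.15. In limma-voom on the recovered reads the call depends on the library size. With the authors' divisor as library size the difference was 0.07 (adjusted p = 0.538), the median of all tested genes was -0.04, and 1589 genes passed as higher and 2091 as lower. With the total of listed reads, a setting chosen after seeing the data, it was 0.19 (SE 0.0713, adjusted p = 0.0154), the median of all genes was 0.09, and 2670 passed as higher and 1626 as lower. ASNS was counted from 1457 to 2951 recovered reads per library. In limma on log2(FPKM + 1) 22.8% of the 6679 tested genes passed as higher and 30.3% as lower, so many mRNAs passed where ASNS did not. FPKM of the human and mouse tables are not on a common scale, since the recovered length of ASNS was 20424 bp.

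The other genes of the amino acid response went both ways in KOPTK1. Of 41 tested list members 12 passed the test as higher with gSI and 21 as lower, where 22.8% of all tested genes passed as higher and 30.3% as lower. The median difference was -0.19, beside -0.03 over all tested genes. The members that rose include regulators and stress genes. DDIT3 rose from 13.6 ± 0.173 to 22.3 ± 0.808 FPKM, TRIB3 from 8.27 ± 0.471 to 17.3 ± 0.4999, SESN2 from 2.497 ± 0.106 to 4.58 ± 0.0400, PPP1R15A from 17.4 ± 0.442 to 37.5 ± 0.0438 and CHAC1, which degrades glutathione, from 4.02 ± 0.343 to 9.53 ± 0.137 (limma, adjusted p between 7.9e-12 and 7.3e-08). ATF5 rose most (log2 difference 1.16, SE 0.0945). ATF4 itself was at 95.2 ± 4.20 and 87.9 ± 6.37 FPKM and did not pass (adjusted p = 0.267). Not all regulators rose. ATF3 did not pass either (adjusted p = 0.317), and CEBPG and EIF4EBP1 fell (log2 differences -0.29 and -0.46, limma, adjusted p = 0.0049 and 1.2e-06).

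Of the 21 list members with an r of at least 0.9 in mouse, 19 were tested in KOPTK1, where 13 fell with gSI, 1 (ATF5) rose and 5 did not pass. Among all tested genes 30.3% fell and 22.8% rose. Of all 41 tested list members DDIT4, an inhibitor of mTORC1, fell most (log2 difference -1.64, SE 0.0879), but it is not among the 21 (r of -0.15 in mouse). YARS, of the 10 genes most like Asns in mouse, fell from 11.99 ± 0.212 to 7.25 ± 0.247 FPKM. MTHFD2 fell from 29.9 ± 1.61 to 19.9 ± 0.175 FPKM, PSAT1 from 10.4 ± 0.327 to 7.91 ± 0.292, PHGDH from 5.29 ± 0.0176 to 3.97 ± 0.115 and BCAT1 from 1.69 ± 0.0243 to 0.863 ± 0.0569 (limma, adjusted p between 1.7e-08 and 3.9e-04). PHGDH and BCAT1 are likewise outside the 21 (r of 0.79 and 0.88 in mouse). AARS was at 22.5 ± 0.525 and 22.5 ± 0.426 FPKM and SARS at 15.5 ± 0.0898 and 13.7 ± 0.151 (adjusted p = 0.994 and 0.0756). ASNS sat between the members that rose and those that fell.

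Around the reaction itself, 2 of 11 tested genes of asparagine and aspartate metabolism rose and 8 fell, where 22.8% of all tested genes rose and 30.3% fell. NARS fell from 14.9 ± 0.743 to 11.2 ± 0.0163 FPKM, DARS from 2.66 ± 0.106 to 1.48 ± 0.0946, ASNSD1 from 8.57 ± 0.143 to 6.51 ± 0.0392 and GOT2 from 6.35 ± 0.0174 to 5.15 ± 0.0599, while GOT1 rose from 2.89 ± 0.204 to 3.80 ± 0.0245. Of 8 tested genes of glutamine amide metabolism 2 rose and 4 fell, and the share that rose lay near that of all genes. GLUL, which makes glutamine, fell from 97.3 ± 4.87 to 63.2 ± 0.653 FPKM, and PPAT and GFPT1 did not pass (adjusted p = 0.177 and 0.434). Of 6 tested carriers 3 rose, namely SLC3A2, SLC1A5 and SLC38A2, and SLC38A1 fell. All 3 that rose are also on the amino acid response list. Of 13 tested genes of eIF2 sensing 2 rose and 4 fell, the latter near the 30.3% of all genes, with EIF2S3 and EIF2S2, subunits of eIF2, at log2 differences of -0.81 and -0.72. EIF2AK4 and GCN1L1 did not pass (adjusted p = 0.501 and 0.228). Thymocyte and T-ALL markers, 17 of 20 listed, summed to 428 and 415 FPKM with DMSO and to 242 and 256 FPKM with gSI.

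**Figure D5:**
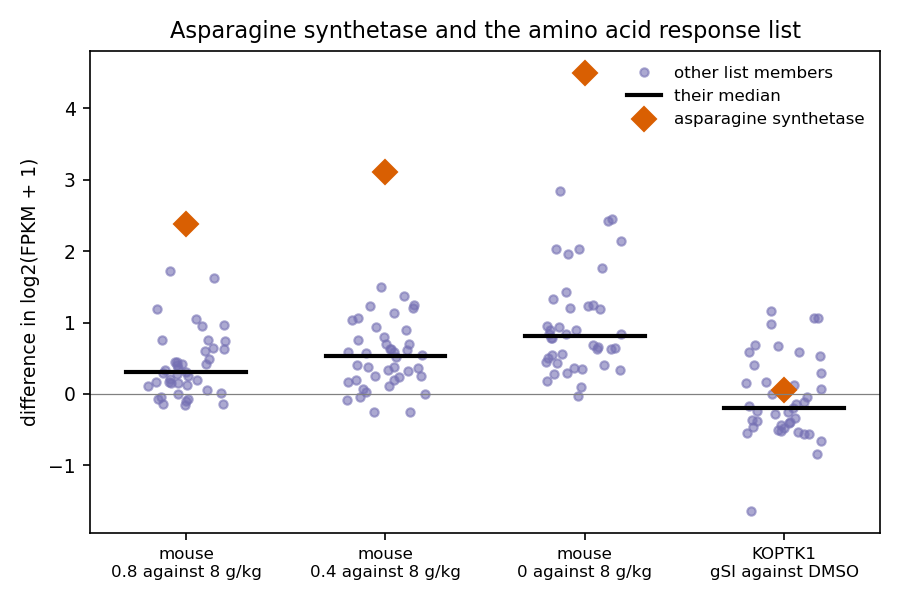
Differences in log2(FPKM + 1) of asparagine synthetase (diamonds) and of the other tested members of the amino acid response list (points; 42 in mouse, 41 in human) in the 3 diet comparisons and in KOPTK1, with horizontal bars at the list medians; the diet comparisons share their control libraries. The diamonds lie at 2.38, 3.11 and 4.50 in mouse, above every other member, and at 0.05 in KOPTK1, among the other members.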

How the data were processed

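RNA of 4 KOPTK1 and 8 mouse libraries was sequenced with a strand-specific kit, per the labels' protocols. The submitters' processing notes name STAR, edgeR, hg19 and mm10, with no versions or roles; neither counting method nor gene lengths are stated there. The values the authors deposited are FPKM per gene, in a table per species, and each table was analysed on its own. Reads were recovered from the steps between FPKM values; all values were whole reads within a relative 1e-10, and the implied length was whole within 0.01 bp for 99.88% of mouse and 95.75% of human genes. Genes averaging 1 FPKM or more were tested with limma 3.58.1 (R 4.3.3) on log2(FPKM + 1) with trended variances (two-sided, Benjamini-Hochberg, threshold 0.05), all diets in 1 fit. With 2 libraries against 2, an exact permutation test cannot give a p under 0.333, so none was used. The gene and the lists were chosen with earlier results of these data known. Genes named are asparagine synthetase, the 10 with the highest r, fixed genes of each list, the 2 largest rises and falls per list where the higher group reached 5 FPKM, and genes within 500 kb; those named for their r, their motif, their markers or their place within a list beyond that were chosen after seeing values. Promoters are RefSeq's (GRCm38.p6), and gene models GENCODE's on GRCm38, the assembly mm10 names. Alternatives were other pseudocounts, filters, scalings and fits, a replicate block, and leaving out each library; fits without the 0.4 g/kg libraries were added after seeing the data. The values of 1 gene of a fixed list are not reported here.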

Additional observations from a re-analysis of the deposited data

Results flagged for a closer look

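Between 0.8 and 0.4 g/kg valine Asns moved in opposite directions in the libraries of the 2 names: log2(FPKM + 1) was 2.88 higher at 0.4 than at 0.8 g/kg in TALL2 and 1.42 lower (a difference of -1.42) in TALL3. With 1 library per name and diet this difference was not tested. Of all 9943 tested genes 184 (1.85%) were over 0.5 higher in TALL2 and over 0.5 lower in TALL3 in the same step. So were 6 of the 42 tested genes of the amino acid response list and 2 of the 19 tested thymocyte and T-ALL markers.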

How the results depend on the processing

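The difference of Asns without valine lay between 3.45 and 4.93 over 4 other settings and between 4.31 and 4.68 with a library left out, and at 0.4 g/kg between 2.19 and 3.50 and between 2.40 and 3.82. At 0.8 g/kg it was 3.82 without the TALL2 and 0.94 without the TALL3 library of that diet, so 1 library decides its size, and it stayed between 1.66 and 2.71 over the other settings. ASNS in KOPTK1 did not pass under 12 of 13 alternatives (difference 0.01 to 0.09, adjusted p 0.193 to 0.953) and passed in limma-voom with listed-read totals as library size (0.19, adjusted p = 0.0154), which raised the median of all genes; it is below a filter of 5 FPKM and was not tested there. Mouse libraries share the names TALL2 and TALL3 across diets, though the meaning of either name is unknown. The replicate numbers of KOPTK1 carry no stated pairing. The difference between TALL3 and TALL2 within a diet was correlated across genes between diets. These correlations ran from -0.174 (0.8 with 0.4 g/kg) to 0.743 (8 with 0.8 g/kg). The replicate differences of DMSO and gSI in KOPTK1 correlated at 0.258. In limma with the replicate block ASNS had an adjusted p of 0.573, and 0 mouse and 3705 KOPTK1 genes passed. No gene passed in any diet comparison under any alternative, with 138 to 1452 at an unadjusted p under 0.05. The KOPTK1 count of 3547 was 5374 with no filter and 1139 with a filter at 5 FPKM, where more and fewer genes were tested, and 2207 to 3555 with a library left out, lowest without gSI replicate 2. The median of the amino acid response list in KOPTK1, -0.19, was -0.27 and -0.13 with pseudocounts of 0.1 and 5, -0.13 with no filter, -0.15 with a filter at 5 FPKM, -0.12 with quantile scaling and -0.24 to -0.17 with a library left out; the cause was not tested. Without valine the list's median stayed between 0.61 and 0.93. The 10 genes most like Asns shared 6 to 10 members with the set found when a library was left out and 2 when ranked by Spearman's rho. Asns rested on 88 and 96 reads in the controls, which limits its ratios.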
